A study of Mus musculus with 145 samples.

Results

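Insertions of a piggyBac transposon were examined in genes that carry signals from receptor tyrosine kinases through RAS to ERK, in mouse mammary tumours that had become resistant to a PI3K alpha inhibitor and in untreated tumours. The genes were fixed by name: the adaptors Gab1 and Gab2, the phosphatase gene Ptpn11, the RAS exchange factors Sos1 and Sos2, and the kinases Braf and Map2k1. Of these 7, 6 had a row among the 13391 gene regions of the deposited table, found by gene identifier. Ptpn11 had no row and was left out, and 0 listed sites lay between its RefSeq start and end. In the 6 gene regions 50 positions were listed, and 18 sites had at least 10 reads in the tumour that held most reads there, which is the rule used here for calling a tumour hit.

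All mice carried WAP-Cre, LSL-PB, LSL-PIK3CA(H1047R) and ATP1. The WAP promoter drives Cre in the mammary gland from late pregnancy, and Cre then switches on the piggyBac transposase and an activated catalytic subunit of PI3K alpha, so every tumour of both groups had that oncogene and a mobile ATP1 transposon. By the mouse numbers in the sample titles, the 94 untreated tumours came from 23 mice and the 51 resistant tumours from 25 other mice, 48 in all, whereas the protocol states 53. Untreated libraries 58 and 88 carry the same mouse and gland in their titles, the latter with the suffix R2, and were counted as 2 tumours because the protocol counts 94. Counting positions that other tumours also held, they had 4 and 1 sites of at least 10 reads, 1 of them in both. With each position kept only in the tumour with most reads, they had 1 and 0. Neither library had a hit in a member. Resistant tumours were treated from 250 mm3 with 30 mg/kg BYL719 (alpelisib, a PI3K alpha inhibitor) daily and grew over at least 3 consecutive measurements in 3 weeks of treatment. The mice were mated to switch on WAP, and ages are not analysed here. Insertion reads do not show expression, so the tissue label, MFP tumor, was not checked against markers. All libraries came from genomic DNA, and a read count reflects PCR as well as the share of cells with the insertion. Library totals ran from 51 to 1604365 reads, with medians of 136932 in resistant and 48339 in untreated tumours.

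GAB1 and GAB2 are docking proteins that are phosphorylated at activated receptors and recruit the phosphatase SHP2, the product of Ptpn11, and PI3K. SOS1 and SOS2 load RAS with GTP, RAS-GTP activates RAF kinases such as BRAF, and RAF phosphorylates MEK1, the product of Map2k1, which phosphorylates ERK. PiggyBac integrates at TTAA, and the ATP1 transposon carries a promoter with a splice donor and splice acceptors with polyadenylation signals, so it can raise, truncate or stop the transcript of the gene it enters.

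The deposited table gives 4 bases on each side of a position, and these are shown for the most-read site of each gene in each group, because they show whether the site has the sequence that piggyBac uses. The first 4 bases, where TTAA stands at a piggyBac site, are in capitals.
Gab1, resistant tumour 3: TTAAggac
Gab1, untreated tumour 4: TTAAaaaa
Gab2, resistant tumour 32: TTAAtgcc
Gab2, untreated tumour 22: TTAAcatg
Sos1, resistant tumour 12: TTAAagag
Sos2, resistant tumour 5: TTAAtgga
Sos2, untreated tumour 22: TTAAatga
Braf, resistant tumour 10: TTAAagac
Braf, untreated tumour 45: TTAAaatg
Map2k1, resistant tumour 26: TTAAagcc
Map2k1, untreated tumour 39: TTAAaaag
All 18 sites of at least 10 reads lay at TTAA. Of the 50 listed positions 12 did not, and their highest count was 4 reads. Of these 12 positions 11 had a single read, among them the contexts AAAAaaaa in Gab1, Braf and Sos2, TAAAaaaa in Sos2 and ACAAaaaa in Map2k1. Over all gene regions, 3.19% of the sites of at least 10 reads and 25.5% of the sites of 1 read were not at TTAA.

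Hits in these 6 genes were few in both groups, too few for the adjusted test to show a difference in any of them. At least 1 of the genes was hit in 4 of 51 resistant tumours (7.84%) and 12 of 94 untreated tumours (12.8%), from 4 and 10 mice. These 2 shares were not compared by a test. Genes hit in at least 5 tumours were tested by Fisher's exact test, and p-values were adjusted by the Benjamini-Hochberg method over all 2558 of them. Of the 6 members Gab1 and Gab2 were tested and 0 passed, as did 0 of the 2558 genes (0.0%). Neither could have passed, however its hits were split between the groups. The lowest p that 5 or 6 hits can give is 0.00472 or 0.00155. Nf1 had a lower p, 0.000164, and its adjusted p was 0.419 (Fisher's exact test). The adjusted test therefore cannot decide whether Gab1 or Gab2 differed. Without adjustment, neither Gab1 nor Gab2 had p under 0.05, against 77 of the 2558 genes (3.01%), 60 with the higher share in resistant tumours (2.35%) and 17 with the lower (0.665%). Among the 11111 genes hit in at least 1 tumour, 156 (1.4%) had p under 0.05, and 0 of the 5 members hit in at least 1 tumour did. Part of that count was fixed by the few hits: the lowest p that 1 or 2 hits can give is 0.122. With all hits in untreated tumours, 6 give 0.0906. With all in resistant tumours, 4, 5 and 6 hits give 0.0141, 0.00472 and 0.00155 (Fisher's exact test). In that direction Braf, Gab1 and Gab2 could have had an unadjusted p under 0.05. Over all tested genes the median difference between resistant and untreated shares was 0.563 percentage points, and 53.1% of genes had the higher share in resistant tumours.

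**Figure D1:**
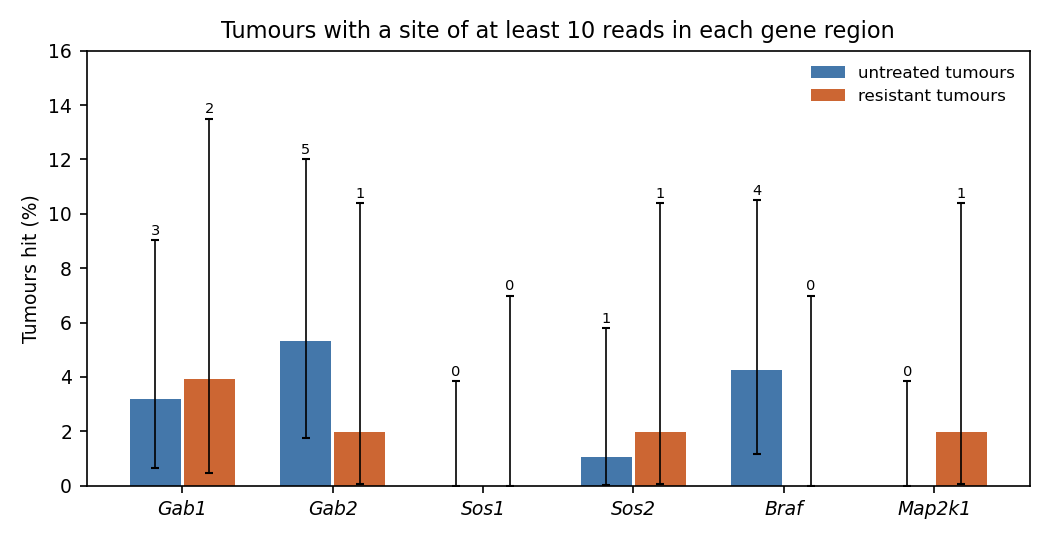
Percent of untreated (blue) and resistant (orange) tumours with a site of at least 10 reads in each gene region. Bars start at 0, error bars are Clopper-Pearson 95% intervals and the number above each is the number of tumours hit, 5 at most (Gab2, untreated), and the intervals of the groups overlap for every gene.

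Gab1 spans positions 80764434 to 80882479 of chromosome 8 (mm10, minus strand, identifier 14388, 118 kb with its upstream extension). Hits were found in 2 of the resistant tumours (3.92%, 95% interval 0.478 to 13.5) and in 3 of the untreated ones (3.19%, 0.663 to 9.04). Resistant tumour 3 held 221 reads at 80838642 and resistant tumour 32 held 29 reads at 80839665. These sites were 1023 bp apart, lay about 41 kb into the gene (41877 and 40854 bp) and were both oriented against it, in tumours of different mice. In untreated tumours the hits had 21 reads (tumour 4, position 80807182), 20 reads (tumour 27, 80854529) and 13 reads (tumour 35, 80872459), and came from 3 mice. Counts of 9 and 8 reads in a further 2 untreated tumours lay just under the minimum. The other 89 untreated tumours had 0 reads in Gab1, as had 47 resistant tumours, and resistant tumours 26 and 48 had 1 read at most at a position. The reads of both resistant hits lay above the 21 reads that were highest in untreated tumours, but not as a percent of the reads of the tumour. By that measure the hits of resistant tumours 3 and 32 were at 0.0727% and 0.0224%. Those of untreated tumours 27, 4 and 35 were at 0.102%, 0.023% and 0.00405%. Most tumours of each group were at 0 reads. The shares did not differ detectably (odds ratio 1.24, 95% interval 0.1 to 11.2, p = 1 and adjusted p = 1 by Fisher's exact test), and the sign of the difference depended on the minimum, with 2 resistant and 5 untreated tumours hit at 5 reads.

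Gab2 spans positions 97079751 to 97308951 of chromosome 7 (plus strand inferred from its upstream extension, identifier 14389) and, at 229 kb, was the longest of the 6 regions. Hits were found in 1 resistant tumour (1.96%, 95% interval 0.0496 to 10.4) and in 5 of the untreated ones (5.32%, 1.75 to 12). The untreated hits had 229 reads (tumour 22, position 97174737), 65 reads (tumour 6, 97127979), 33 reads (tumour 21, 97187999), 16 reads (tumour 9, 97138185) and 15 reads (tumour 61, 97297653). The 5 tumours came from 3 mice, since tumours 21 and 22 shared a mouse, as did tumours 6 and 9. No position was shared between them. The resistant hit had 13 reads, in tumour 32 at 97198059, and that tumour also carried a Gab1 site. Resistant tumour 10 had 7 reads at another position, under the minimum. The shares did not differ detectably (odds ratio 0.358, 95% interval 0.00738 to 3.33, p = 0.666 and adjusted p = 1 by Fisher's exact test). Counted over mice, the Gab2 hits came from 1 of the 25 with resistant tumours and 3 of the 23 others (Fisher's exact test, p = 0.338). With labels permuted over mice, which also changed the number of tumours per group, the adjusted p was 0.944 for Gab1 and 0.878 for Gab2.

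Sos1 spans positions 80393752 to 80482453 of chromosome 17 (minus strand, identifier 20662). It had no hit in either group, which allows shares of up to 6.98% in resistant and 3.85% in untreated tumours (upper 95% bounds). A single position was listed in it, 80465873, with 8 reads in resistant tumour 12, and the other 50 resistant tumours and all 94 untreated tumours had 0 reads.

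Sos2 spans positions 69583761 to 69683852 of chromosome 12 (minus strand, identifier 20663). It held the site of highest rank in its tumour, position 69678405, with 284 reads in resistant tumour 5. That site was the 19th by reads of the 1789 sites of that tumour, carried 0.262% of its reads, had a div value of 6 and lay 3447 bp downstream of the gene start in the orientation of the gene. No other site in the 6 genes was among the 20 most-read of its tumour. In untreated tumours the highest count was 17 reads, in tumour 22 at 69591265, which lay 90587 bp from the start, near the far end of the gene. Shares were 1.96% (95% interval 0.0496 to 10.4) and 1.06% (0.0269 to 5.79), with 1 tumour hit in each group, and did not differ detectably (Fisher exact test, p = 1, not adjusted because fewer than 5 tumours were hit). All 5 TTAA positions of Sos2 had the orientation of the gene, although 3 of them had 1 to 3 reads.

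Braf spans positions 39603237 to 39727463 of chromosome 6 (minus strand, identifier 109880). Its hits lay in untreated tumours, 4 of 94 (4.26%, 95% interval 1.17 to 10.5), against 0 of 51 resistant tumours (upper bound 6.98%). The reads were 1062 in tumour 45 at 39718328, 477 in tumour 15 at 39649286, 234 in tumour 1 at 39686708 and 70 in tumour 42 at 39638816, and the 4 tumours came from 4 mice. The positions in tumours 45, 15 and 42 each had 1 read in a further untreated tumour. With shared positions dropped, 1 untreated and 0 resistant tumours were hit in Braf, as with a div value of at least 2. The highest resistant count was 4 reads, in tumour 10 at 39660113. Untreated tumour 39 had 6 reads at 39677223, also under the minimum. The odds ratio was 0 (95% interval 0 to 2.78, Fisher exact test, p = 0.298, not adjusted because fewer than 5 tumours were hit). That p is the lowest that 4 hits can give when all lie in untreated tumours, so the test could not have passed in that direction. Counted over mice it was 4 of 23 against 0 of 25 (Fisher exact test, p = 0.0455 without adjustment), and with labels of tumours permuted over mice p was 0.11 without adjustment. Untreated mice gave more tumours each. Of 2427 genes hit in at least 5 mice, 11.5% had an unadjusted p under 0.05 as lower in resistant mice (Fisher exact test). Braf, hit in 4 mice, was not among these genes. The part of the number of tumours per mouse in the Braf value was not tested. Of the Braf hits 2 were oriented with the gene and 2 against it, at 7330, 38950, 76372 and 86842 bp from the start. The site in tumour 1 had a div value of 12, the highest of the 18 sites.

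Map2k1 spans positions 64185793 to 64255605 of chromosome 9 (minus strand, identifier 26395) and was the shortest region, at 69.8 kb. Its hits were 1 in resistant tumours (1.96%, 95% interval 0.0496 to 10.4) and 0 in untreated ones (upper bound 3.85%, Fisher exact test, p = 0.352, the lowest that 1 hit can give, not adjusted because fewer than 5 tumours were hit). With labels permuted over mice the unadjusted p was 0.00065, but all 1583 genes with 1 resistant and 0 untreated hits had p under 0.05 in that permutation, so it tells nothing of Map2k1. The site lay at 64188897, at the far end of the gene (64708 bp from the start) and in its orientation, with 168 reads in resistant tumour 26. That library was the deepest of all, with 1604365 reads and 17825 listed sites, and the site ranked 1545th in it, with 0.0105% of its reads. In untreated tumours 4 positions were listed, all against the gene, with at most 7 reads. For the 300 bases around each gene start, RefSeq (GRCm38.p6) had an entry for Sos1, Sos2, Braf, Map2k1 and, with 2 overlapping windows, Gab1. The motif TTAA, which reads the same on both strands, was found in the Map2k1 window alone, against 52.4% of all 32851 windows. Listed sites in the 6 windows numbered 0, and the share of all windows with a listed site was not computed. The Map2k1 window, chr9:64253556-64253855 on the minus strand, is shown because it holds the integration motif, in capitals.
Map2k1 promoter window: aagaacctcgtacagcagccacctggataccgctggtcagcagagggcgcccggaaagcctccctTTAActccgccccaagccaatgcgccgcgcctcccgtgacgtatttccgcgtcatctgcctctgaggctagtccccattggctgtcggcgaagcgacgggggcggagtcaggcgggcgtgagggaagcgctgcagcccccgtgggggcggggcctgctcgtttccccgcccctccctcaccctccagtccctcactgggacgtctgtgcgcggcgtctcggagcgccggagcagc

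**Figure D2:**
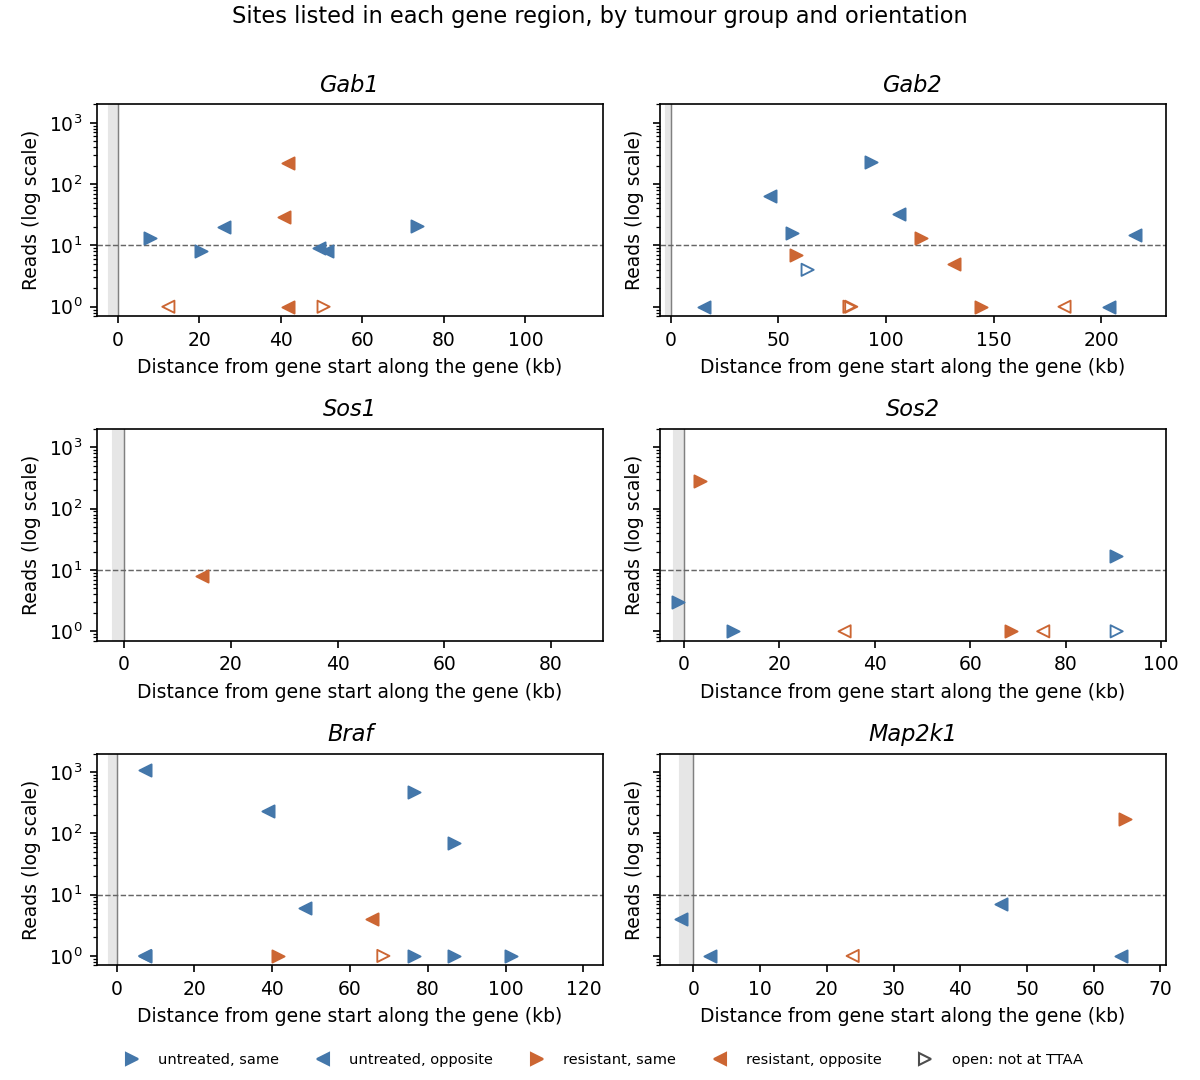
Reads (log scale) of every site listed in the 6 gene regions against distance from the gene start along the gene (kb), with the upstream extension in grey and the minimum of 10 reads dashed. Triangles point right where the transposon runs with the gene and left where it runs against it, blue marks untreated and orange resistant tumours, and open symbols mark sites not at TTAA, all of which lie under the dashed line.

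Orientation was mixed. Of the 5 sites of at least 10 reads in resistant tumours 3 had the orientation of the gene, as had 7 of the 13 in untreated tumours. With fewer than 10 such sites in each gene, 0 of the 6 could be tested for orientation. The strand labels were checked against the authors' deposited table, whose number of same-strand insertions was rebuilt exactly in 12 of 12 pairs of gene and group. None of the 18 sites lay in the upstream extension, which held 2 listed positions, 1240 bp before the start of Sos2 (3 reads) and 1930 bp before that of Map2k1 (4 reads). None of the sites lay in the region of another gene.

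Hits were also set against the length of each region. Chromosome 10 held 18.1% of all listed sites and was left out of this rate. Gene regions on the other chromosomes had 3.85 tumour hits per 100 kb. At that rate Gab1 would have been hit in 4.54 tumours and was hit in 5, Braf in 4.78 and was hit in 4, and Gab2 in 8.81 and was hit in 6. Sos2 was hit in 2 tumours against 3.85, Map2k1 in 1 against 2.68 and Sos1 in 0 against 3.41. For hits per length, 51.1% of those gene regions lay below Gab1, 39.8% below Braf, 32.8% below Gab2, 25.9% below Sos2 and 21.2% below Map2k1. These are descriptions, and length was the single property considered.

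The sites were small parts of their tumours. The 18 sites had from 13 to 1062 reads, with a median of 49, and carried a median of 0.0699% of the reads of their tumour (0.00405 to 0.262%). Sites of at least 10 reads in any gene region had a median of 40 reads and 0.0425%. The div value was above 1 at 2 of the 18 sites, in Sos2 and Braf, and at 14.6% of all such sites in gene regions. Only these 2 sites, at ranks 19 and 36, were among the 100 most-read of their tumours.

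**Figure D3:**
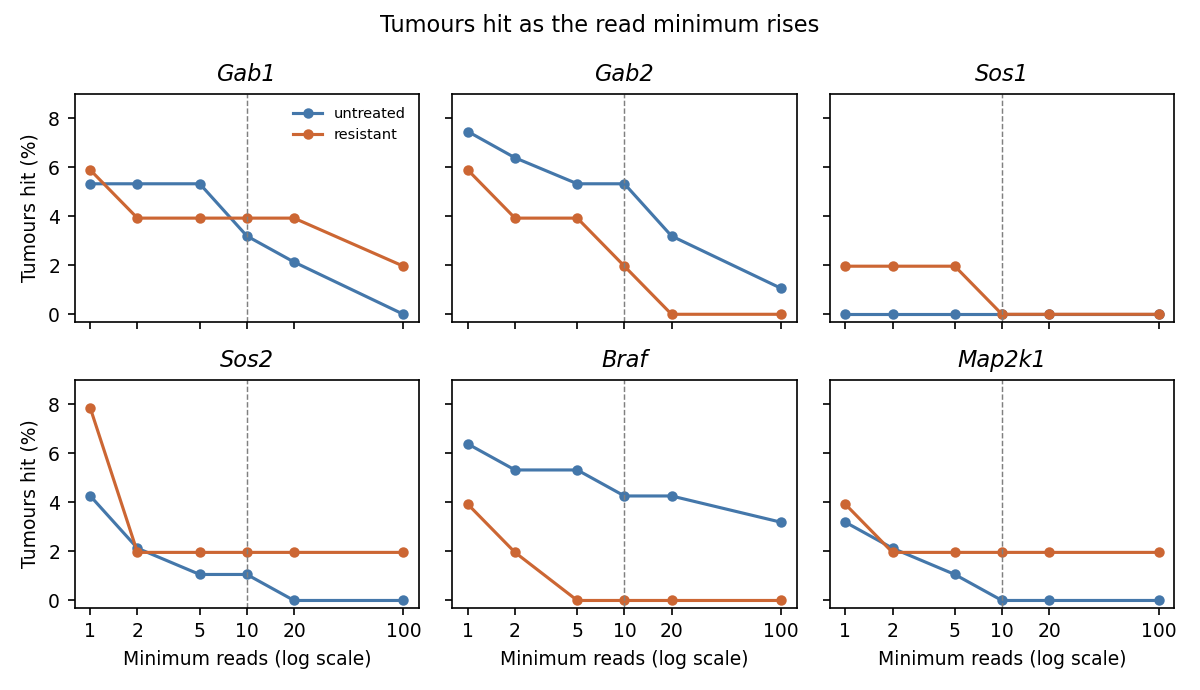
Percent of untreated (blue) and resistant (orange) tumours hit in each gene as the minimum number of reads rises from 1 to 100 (log scale), with the minimum of 10 reads dashed. Most of the shares at 1 read, up to 7.84% (Sos2, resistant), are lower at 10 reads, and the lines of Gab1, Sos2 and Map2k1 cross.

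The authors' deposited table counts more tumours for these genes than the minimum of 10 reads leaves. In the authors' deposited table Braf stood at 3.92% of resistant and 8.51% of untreated tumours, Gab2 at 5.88% and 6.38%, and Gab1 at 5.88% and 5.32%. Sos2 stood at 3.92% and 3.19% in the authors' deposited table, Map2k1 at 1.96% and 3.19%, and Sos1 at 1.96% and 0%. The signed −log10 p scores of the 6 genes in the authors' deposited table ran from -0.461 to 0.44. Of all gene regions there, 32.4% in resistant and 33.8% in untreated tumours had a score above 0.44. The authors' tumour numbers were rebuilt exactly in 12 of 12 pairs of gene and group by counting any TTAA site of 1 read or more, with shared positions kept. Summed over the 6 genes, that rule gave 12 pairs of a gene and a resistant tumour, of which 4 rested on a single read and 5 had at least 10 reads. With untreated tumours it gave 25 pairs, 6 of them on a single read and 13 with at least 10 reads. A tumour with sites in several members stands in several pairs.

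Tumours hit in these genes had more sites at the median than the other tumours of their group. A tumour with more sites has more chances to be hit in any gene. Such medians were not computed for tumours hit in other genes. Tumours held a median of 473 sites of at least 10 reads in the resistant group (0 to 3321) and 431 in the untreated group (0 to 3017), a ratio of geometric means of 1.17 that did not differ detectably from 1 (permutation over mice, p = 0.636). The ratio was 1.85 for sites of at least 100 reads (p = 0.09) and 1.9 with resistant tumours of the Tgtumor title form alone (p = 0.0629, both permutations over mice). The 4 resistant tumours hit in a member had 1001 to 2793 sites, with a median of 1640, against 434 in the other 47. The 12 untreated tumours hit had 360 to 2832, with a median of 1108.5, against 377.5 in the other 82. The part of the number of sites in which tumours were hit was not tested. By title form, 11 of 61 TgTum and 1 of 33 tgTum untreated tumours were hit, and 4 of 35 Tgtumor and 0 of 16 Mouse resistant tumours. Median numbers of sites in these forms were 730, 258, 637 and 241.5.

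**Figure D4:**
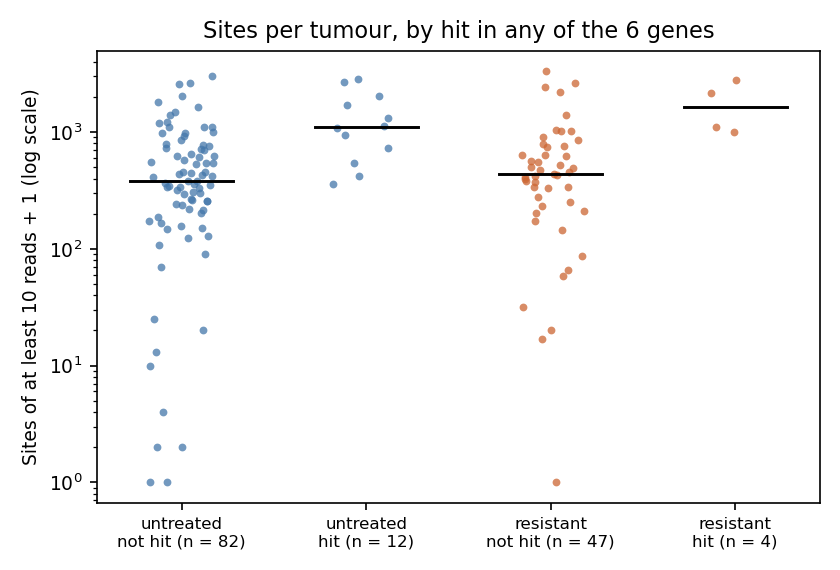
Number of sites of at least 10 reads plus 1 (log scale) in each tumour, by group and by whether any of the 6 genes was hit, with medians as bars. The 4 resistant tumours with a hit all have at least 1001 sites. The medians of tumours with a hit, 1640 and 1108.5, lie above those without, 434 and 377.5. More sites give more chances of a hit in any gene.

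In each group 1 tumour was hit in 2 members. Resistant tumour 32 carried Gab1 and Gab2 and untreated tumour 22 carried Sos2 and Gab2, and 0 tumours carried 3 members. Nf1, which encodes a brake on RAS, was hit in 18 resistant (35.3%) and 8 untreated (8.51%) tumours. Of the tumours with a member hit, 3 of the 4 resistant and 0 of the 12 untreated were among them. Tumours with a member hit also had more sites at the median. The overlap was not tested, and it was not counted for other genes. Among genes outside chromosome 10 hit in at least 5 tumours, those hit in the tumours most like those of Gab1 were Ctnnb1, Gnb1 and Ift74 (each 3 tumours in common of 7 hit in either, Jaccard index 0.429, over 145 tumours). For Gab2 they were Mtf2 (3 of 8, 0.375), Ccdc173 and Cltc (each 3 of 9, 0.333). These indices share the tumours with many sites and are descriptions.

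Among other genes of the RAS-MAPK route, those tested did not differ detectably between groups. The list held 51 genes, of which 39 had a gene region, 32 were hit in at least 1 tumour and 9 in at least 5. Of these 9, 0 passed in either direction (adjusted over all genes tested), as did 0.0% of all tested genes. An unadjusted p under 0.05 was found for 0 of the 9, against 3.01% of all tested genes (Fisher exact test). The share was higher in resistant tumours for 6 of the 9, against 53.1% of all tested genes. The median difference of the 9 was 1.46 percentage points, against 0.563 over all tested genes. Among kinases and scaffolds, Cnksr2, a scaffold that binds RAF, was hit in 4 resistant (7.84%) and 2 untreated (2.13%) tumours (p = 0.185, Fisher exact test). The scaffold gene Cnksr3, on chromosome 10, was hit in 7 and 14 tumours (13.7% and 14.9%), and Ksr2, a scaffold of RAF and MEK, in 1 and 4. Rras2, a RAS-related GTPase, was hit in 3 and 2 tumours, and the exchange factor gene Rasgrp3 in 3 and 4. The adaptor gene Frs2, also on chromosome 10, was hit in 3 and 6. Of the transcription factor genes downstream of ERK, Ets1 was hit in 4 and 6 and Etv1 in 3 and 5.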

How the data were processed

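Transposon insertion sites were examined in 94 untreated and 51 resistant tumours of 23 and 25 mice. The authors deposited a table of 198107 sites (build mm10, per the submitters' processing notes) with a whole-number read count per tumour, not scaled as far as the values show. The aligner, site caller and filters are not given in the sources used here. A further deposited column per tumour, headed div, holds another whole number per site that the header does not define. It was used as a description and in 1 alternative. Another 580 per-tumour columns were not used. ATAC-seq stands in the title of the series, but the protocols describe insertion mapping. The authors also deposited a table of 13391 gene regions. It gives insertion counts pooled by group, the percent of tumours with an insertion and, per the file headers, a signed −log10 p score of a common integration site test.

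Gene rows were found by identifier through the RefSeq gene table (GRCm38.p6, the build of mm10), which held 12384 of the identifiers. Regions reach 2000 bp upstream of most genes. Where several tumours had reads at a position and strand, it went to the one with most (12 ties, to the tumour listed first). A tumour was hit in a gene at a site of at least 10 reads. Groups were compared for each gene by Fisher's exact test (two-sided). For the 2558 genes with 5 or more tumours hit, p-values were adjusted by the Benjamini-Hochberg method, with a threshold of 0.05. Shares have Clopper-Pearson 95% intervals, which cover counting error over tumours alone: PCR reads that carry no molecular identifier cannot be taken as separate molecules. Tumours of a mouse are not independent, so labels were also permuted over mice (100000 resamples), and mice were counted. Mice gave unequal numbers of tumours, so each permutation also changed the number of tumours per group. All 1583 genes with 1 resistant and 0 untreated hits had p under 0.05 in that permutation, a limit on all its values. The mouse was read from the sample title, in 1 title from its first 6 digits where mouse and gland ran together. The titles name 48 mice and the protocol 53, so counts over mice may not be exact. Gene strands came from the RefSeq promoter table or, where it had no entry, from the extended end of the region. These sources named the same strand in 91.4% of 9754 genes with both. Exons and introns were not assigned for want of a gene model.

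All 6 genes with a region are named. For each, the most-read site per group and any site among the 20 most-read of its tumour are given with position and context. The other sites of at least 10 reads were added after their values were seen. The pathway list and the likeness rule stand with their results, and values of some genes of the list are not reported here. Members, lists and rules were chosen with earlier results of these data known. The alternatives covered the read minimum, the number of sites per tumour, shared positions, TTAA context, the upstream extension, the unit and subsets of libraries. The comparison was tested on simulated data (Python 3.11.15, scipy 1.17.1).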

Additional observations from a re-analysis of the deposited data

How the results depend on the processing

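Of 120 values of the 6 genes under 20 alternatives, 82 kept their sign, 9 took the opposite sign, 9 went to 0, 2 (Sos1) left 0 and 18 were 0 in both. The adjusted threshold was passed by 0 members in each of the 20, but not every alternative tested a member. With the rule used, no split of the hits of Gab1 or Gab2 could have passed that threshold. No member was tested with 20 or 100 reads, with 100 or 300 sites per tumour or with 0.1% of the reads. Nor was any tested with genes hit in at least 10 tumours or with a div value of at least 2. The cause of the changes in the values was not tested. Gab1 turned lower in resistant tumours by -1.4 percentage points with 5 reads, -1.06 with 300 sites per tumour, with 0.1% of the reads or with a div value of at least 2, -1.23 with shared positions dropped, -5.04 over mice and -0.996 with the TgTum form alone. Sos2 turned to -0.348 over mice. Map2k1 turned to -1.23 with 1 read at TTAA and shared positions kept. With 100 or 300 sites per tumour Sos2 was hit in 2 resistant and 0 untreated tumours (Fisher exact p = 0.122), the second a site of 1 read in resistant tumour 46 that was not at TTAA.

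Over all genes, 0 passed with the rule used, 1 with 0.1% of the reads, 14 with shared positions kept, 4 with labels permuted over mice and 69 with 1 read at TTAA and shared positions kept. That last rule, the one without resistant tumour 26 (0 genes) and the subsets for site numbers were chosen after seeing the data. In orientation 0 genes passed, against 1 with 300 sites per tumour (untreated) and 1 with TTAA sites alone (resistant, and between groups). The difference in log10 number of sites was 0.0684 and turned to -0.057 (p = 0.741, permutation over mice) with the TgTum form alone. Without the R2 library no member's number of hit tumours changed. No paired analysis was possible because the labels give no replicate numbers and no mouse had tumours in both groups. With 18 hits in 6 genes, only large differences could be detected, and that before adjustment. A gene hit in 6 untreated and 0 resistant tumours would have p = 0.0906. In the other direction, 3 resistant and 0 untreated tumours would give p = 0.0418 (both Fisher's exact test, before adjustment).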
